A study of Oryza sativa Japonica Group with 6 samples.

Results

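The activator class auxin response factor (ARF) genes of rice were followed in root tips of wild type and plt345 seedlings. The class was taken as 9 locus identifiers, those of ARF5, ARF6, ARF11, ARF12, ARF16, ARF17, ARF19, ARF21 and ARF25, out of 31010 genes in the deposited table, and the rule that picks them is a list of identifiers with no threshold on measured values. All 9 were listed and all 9 had the mean of at least 10 normalized counts that a gene needed to be tested. The samples were root tips of about 0.8 cm from 7-day seedlings of Oryza sativa Japonica group. Wild type was the cultivar Zhonghua 11 (ZH11), and plt345 was a triple mutant of PLT3, PLT4 and PLT5, which belong to the PLETHORA family of AP2-type transcription factors of the root meristem. All seedlings were untreated and grew on half-strength Murashige and Skoog medium with 14 h of light at 28 °C and 10 h of dark at 24 °C. Each genotype had 3 RNA-seq libraries. The kind of each mutation, the number of independent lines, and whether libraries came from separate sets of plants were not stated in the labels, so each p-value speaks of the spread among these 6 libraries, which may be technical.

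Auxin response factors bind auxin response elements in promoters through a B3-type domain. In the activator class the middle region is rich in glutamine and drives transcription. At low auxin, Aux/IAA proteins bind the ARF and recruit TOPLESS corepressors. Auxin joins the TIR1/AFB receptors to the Aux/IAA proteins, these are degraded, and the ARF is released to act on its targets. In Arabidopsis the class comprises ARF5 (MONOPTEROS), which is needed for the embryonic root and for vascular patterning, the pair ARF6 and ARF8, whose transcripts are cut by miR167, and the pair ARF7 and ARF19, which act in lateral root formation. By nomenclature, rice ARF11 is the MONOPTEROS-like member. ARF6, ARF12, ARF17 and ARF25 form the group related to Arabidopsis ARF6 and ARF8. ARF5, ARF16, ARF19 and ARF21 form the group related to Arabidopsis ARF7 and ARF19. The numbers therefore do not carry over between the species, and rice ARF5 is not the counterpart of MONOPTEROS. The class is a naming based on protein sequence, and the table of transcript levels holds nothing that checks it.

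The libraries were of even depth, with 20759896 to 21309371 reads on genes. PLT3 (LOC_Os02g40070) and PLT4 (LOC_Os04g42570) had log2 fold changes of -0.01 and -0.22 (limma adjusted p = 0.897 and 0.0198) and PLT5 (LOC_Os01g67410) one of 1.26 (limma adjusted p = 1.13e-17). PLT4 did not pass when library totals set the scale (-0.13), nor when replicate 1 (-0.17) or 3 (-0.21) of wild type, or replicate 2 of plt345 (-0.18), was left out. Transcript levels do not check the genotype here, as a mutation can leave the transcript in place. All 5 root tip markers were detected, with a summed level of 6657 to 6748 normalized counts in wild type and 6235 to 6381 in plt345, 3 of them higher, 1 lower and 1 short of the threshold. The lower sum came from PIN2, which fell 1.49-fold from 4755 ± 19.5, while PLT1 went from 1466 ± 18.5 to 2514 ± 63.5 and QHB, of the quiescent centre, from 22.5 ± 4.60 to 103.3 ± 16.0. Other tissue markers moved with genotype. Beside these and the root tip marker counts stands the share over all tested genes, 34.0% higher and 34.0% lower. All 3 secondary wall cellulose synthase genes of xylem were higher, with a sum of 2247 to 2307 in wild type and 3873 to 3904 in plt345. Both silicon transporter genes of differentiated root were higher as well, at 1646 to 1690 and 6833 to 7083. The 4 green tissue markers summed to only 45.0 to 54.2 and 10.8 to 19.2. Most of the wild type sum was CAB1R, with 127 reads in wild type and 11 in plt345. It was the only one of the 4 with enough counts to be tested, and it was lower. CAB2R had 20 reads in each genotype. The Rubisco genes RBCS4 and RBCS2 went the other way on few reads, with 1 and 0 in wild type and 15 and 4 in plt345. The part of these shifts in the results below was not tested. In bulk root tips, fewer cells of a type and less RNA per cell cannot be told apart.

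In plt345 root tips, 6 of the 9 activator ARF genes were lower and 3 were higher than in wild type, and in each of the 9 the 3 plt345 libraries lay outside the range of the 3 wild type libraries. ARF11, the MONOPTEROS-like gene, rose 8.88-fold from a low count, whereas the other 8 moved by less than 2-fold. The deepest decrease was that of ARF12, by 1.67-fold. Each of the 9 passed an adjusted p under 0.05 in limma's trend test on log2(normalized count + 1), with Benjamini-Hochberg adjustment over the 23166 tested genes. That share has to be read against a table in which 68.0% of tested genes passed, 34.0% higher and 34.0% lower, and in which the genotypes did not overlap in 71.0% of genes, 35.6% with plt345 higher and 35.5% with plt345 lower. The median log2 fold change (positive where plt345 is higher) was -0.27 over the 9 members and -0.01 over all tested genes.

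**Figure D1:**
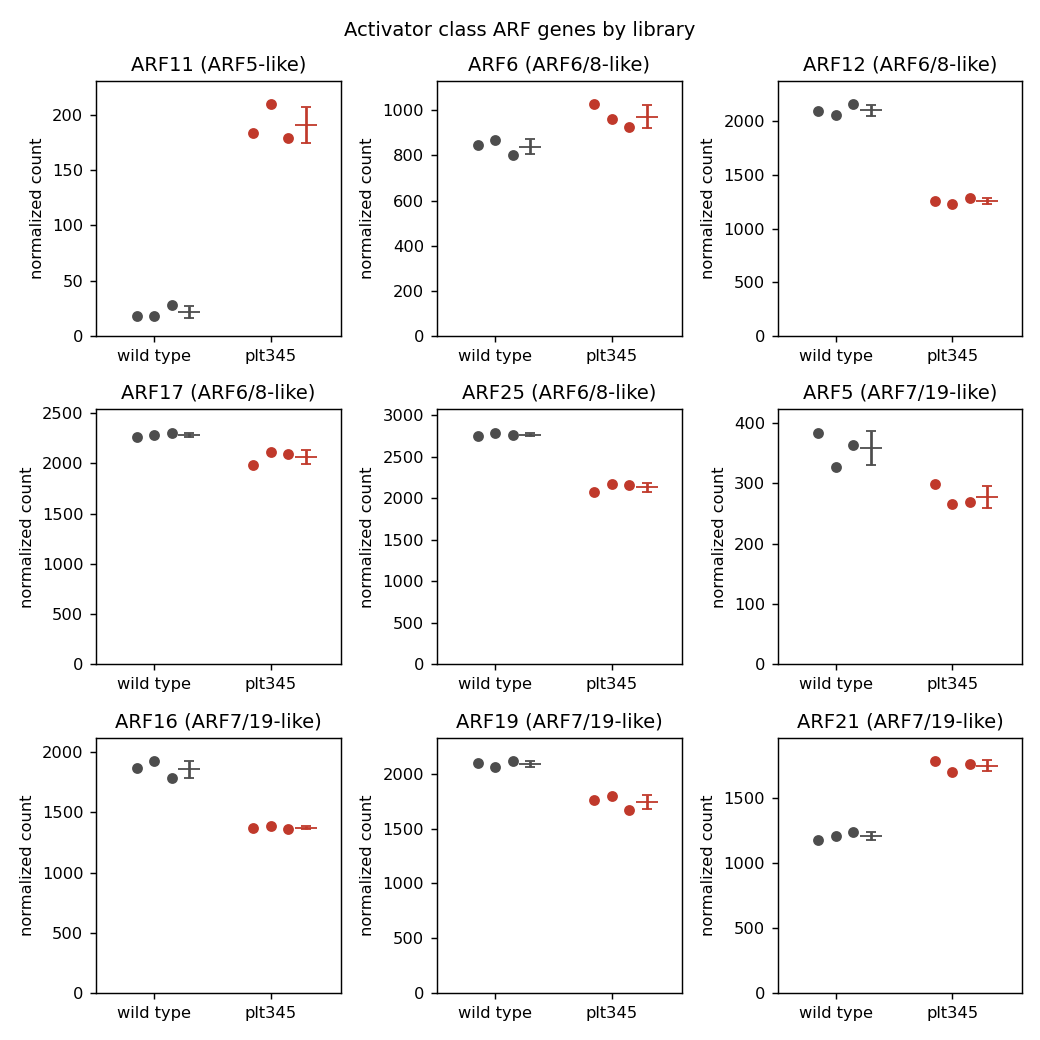
Normalized count (vertical axes, from 0) of each activator ARF gene in the 3 wild type (grey) and 3 plt345 (red) libraries, with mean and SD beside the points. The genotypes do not overlap in any of the 9 panels, and ARF11 is the panel with a rise from 21.4 to 190.5.

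ARF11 (LOC_Os04g56850, chromosome 4) stood at 18.3, 18.4 and 27.6 normalized counts in the wild type libraries and at 183.4, 209.4 and 178.9 in the plt345 libraries. The lowest plt345 library was thus far above the highest wild type library. The means were 21.4 ± 5.35 and 190.5 ± 16.5 (SD, n = 3), a log2 fold change of 3.115 with a 95% interval of 2.77 to 3.46 (SE 0.17, limma adjusted p = 1.23e-14). The wild type mean rests on 63 reads over the 3 libraries, against 587 in plt345, and its coefficient of variation of 24.9% was close to the 21.8% that read counting alone gives. ARF11 was the 1 member that changed by at least 2-fold, a size that 13.8% of all tested genes reached as an increase and 2.97% as a decrease. Of the tested genes 3.06% had a higher log2 fold change.

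The rise of ARF11 was set beside its neighbours on the chromosome, taken as the 5 listed loci on each side in locus order. Of these 10 loci 7 were tested, 3 were higher, 2 of them by at least 2-fold, and 2 were lower, and their log2 fold changes ran from -0.50 to 1.88 around a median of -0.03. The loci on either side of ARF11 itself were below the level for testing. Over the flanks of all 9 members, 64 loci were tested, of which 21 were higher and 21 lower, near the 34.0% in each direction over all tested genes. Over the 18855 genes that averaged at least 50 normalized counts, the one whose 6 centred log2 values lay nearest to those of ARF11 was LOC_Os03g50960, which went from 24.8 ± 5.08 to 209.9 ± 16.2 normalized counts, at a Euclidean distance of 0.220. The next, LOC_Os12g02080, went from 24.5 ± 5.36 to 244.7 ± 11.3, at a distance of 0.259. Both loci were picked by this distance in the same 6 libraries, so their likeness to ARF11 is built in. Their wild type means lay below 50, so they passed that filter only through plt345. The sources used here give neither locus a name.

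The group related to Arabidopsis ARF6 and ARF8 had 3 members lower and 1 higher in plt345. The share over all tested genes was 34.0% lower and 34.0% higher. ARF12 (LOC_Os04g57610), listed in the reference table also as OsARF8, was at 2094, 2062 and 2161 normalized counts in wild type and at 1254, 1231 and 1287 in plt345. The 2 sets of libraries were separated by a wide gap, with means of 2106 ± 50.4 and 1257 ± 28.0 (SD, n = 3). Its log2 fold change of -0.74 had a 95% interval of -0.82 to -0.67 (SE 0.04, limma adjusted p = 3.70e-15).

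ARF25 (LOC_Os12g41950, chromosome 12) was at 2749, 2788 and 2760 in wild type and at 2072, 2169 and 2154 in plt345. The coefficient of variation of the wild type libraries was 0.732%, less than the 1.92% of read counting alone, and every plt345 library was lower. The decrease was 1.30-fold, with a log2 fold change of -0.38 and a 95% interval of -0.45 to -0.31 (limma adjusted p = 3.33e-10).

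ARF17 (LOC_Os06g46410, chromosome 6) was at 2263, 2282 and 2305 in wild type and at 1989, 2114 and 2093 in plt345. All 3 plt345 libraries were below all 3 of wild type, and the decrease was 1.11-fold, with a log2 fold change of -0.15 and a 95% interval of -0.22 to -0.07 (SE 0.04, limma adjusted p = 0.000844). When library totals replaced the size factors this call was lost (log2 fold change -0.057, limma adjusted p = 0.166), which leaves 5 members lower under that scaling.

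ARF6 (LOC_Os02g06910, chromosome 2) went the other way, from 847.1, 868.4 and 802.1 normalized counts in wild type to 1027, 960.8 and 926.9 in plt345. The lowest plt345 library was above the highest wild type library. The increase was 1.16-fold, with a log2 fold change of 0.21 and a 95% interval of 0.11 to 0.31 (SE 0.05, limma adjusted p = 0.000479).

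The group related to Arabidopsis ARF7 and ARF19 was also made up of 3 members that fell and 1 that rose. Beside this count stand the same 34.0% lower and 34.0% higher over all tested genes. ARF16 (LOC_Os06g09660, chromosome 6) was at 1866, 1925 and 1783 in wild type and at 1372, 1382 and 1363 in plt345. The plt345 libraries lay close together, at 1372 ± 9.98 against 1858 ± 71.2 (SD, n = 3), with no overlap. Their coefficient of variation of 0.728% was less than the 2.66% of read counting alone, so this closeness is not a property of the gene. The decrease was 1.35-fold, with a log2 fold change of -0.44 and a 95% interval of -0.52 to -0.36 (limma adjusted p = 2.44e-10).

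ARF19 (LOC_Os06g48950, chromosome 6) was at 2102, 2066 and 2118 in wild type and at 1760, 1799 and 1670 in plt345. Every plt345 library was lower than every wild type library. The decrease was 1.20-fold, with a log2 fold change of -0.27 and a 95% interval of -0.34 to -0.19 (limma adjusted p = 6.97e-07).

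ARF5 (LOC_Os02g04810, chromosome 2) was at 383.4, 327.3 and 362.2 in wild type and at 298.1, 265.1 and 269.2 in plt345. Its libraries were the most spread of the members other than ARF11, with coefficients of variation of 7.92% and 6.47%, and the nearest libraries of the 2 genotypes were 327.3 and 298.1. The decrease was 1.29-fold, with a log2 fold change of -0.36 and a 95% interval of -0.52 to -0.21 (SE 0.08, limma adjusted p = 0.000149).

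ARF21 (LOC_Os08g40900, chromosome 8) was the member of this group that rose, from 1177, 1202 and 1236 normalized counts in wild type to 1780, 1698 and 1759 in plt345. The gap between the genotypes was many times the spread within either, with means of 1205 ± 29.8 and 1745 ± 42.7 (SD, n = 3). The increase was 1.45-fold, with a log2 fold change of 0.53 and a 95% interval of 0.45 to 0.61 (limma adjusted p = 6.17e-12).

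**Figure D2:**
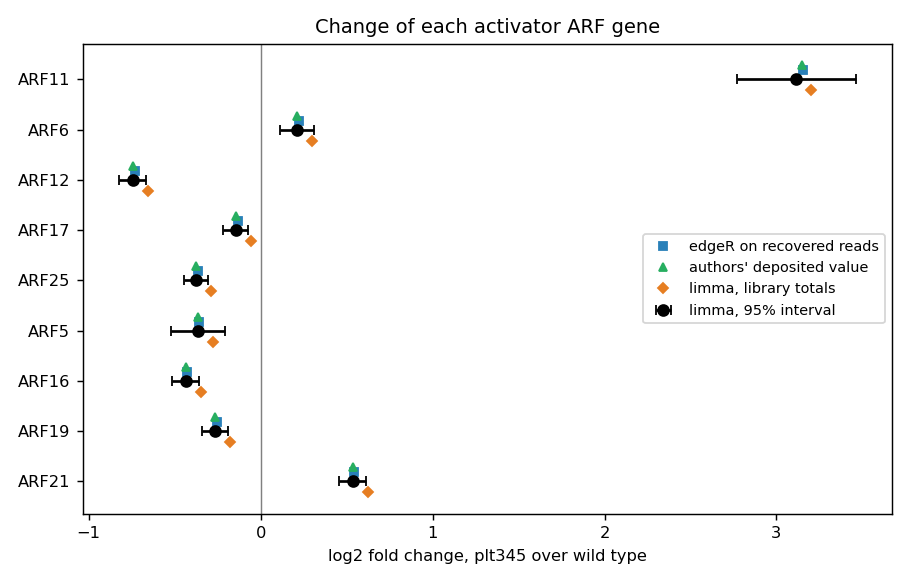
Log2 fold change between plt345 and wild type (horizontal axis, positive where plt345 is higher) for each activator ARF gene, with the limma value and its 95% interval in black, edgeR on recovered reads as blue squares, the authors' deposited value as green triangles and limma with library totals as orange diamonds. ARF11, ARF6 and ARF21 lie right of 0 and the other 6 left of it by every method, with ARF17 nearest to 0 at -0.057 under library totals.

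The 9 directions were the same with each tool run. In the authors' deposited table the log2 fold change of ARF11 was 3.15 (adjusted p = 1.03e-39), that of ARF12 was -0.74 (adjusted p = 6.94e-52), and that of ARF6, the smallest increase, was 0.21 (adjusted p = 0.00305). With edgeR on recovered reads 3 members were again higher and 6 lower. Of the 18 combinations of member and genotype, 12 had an SD above the counting error of their reads.

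Because the scaling between libraries enters each of these values, ratios within a library were also compared. The reference table lists ARF6 and ARF25 as OsARF6a and OsARF6b, and ARF19 and ARF21 as OsARF7a and OsARF7b, and these 2 pairs of like-named genes were chosen after their values were seen. The members of each pair moved in opposite directions, each without overlap of the genotypes. Full separation of the ratios was therefore fixed beforehand, and only their size is described here. The ratio of ARF6 to ARF25 counts was 0.308, 0.311 and 0.291 in the wild type libraries and 0.496, 0.443 and 0.430 in the plt345 libraries. All 3 plt345 ratios were higher, and the mean log2 ratio went from -1.72 ± 0.05 to -1.13 ± 0.11 (SD, n = 3), a difference of 0.59 (exact two-sided permutation test, p = 0.1, adjusted p = 0.1 over 2 pairs).

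The ratio of ARF19 to ARF21 was 1.79, 1.72 and 1.71 in wild type and 0.989, 1.06 and 0.950 in plt345. In wild type ARF19 gave more reads than ARF21 in every library, and in plt345 the counts of the 2 genes were nearly equal. The mean log2 ratio went from 0.80 ± 0.03 to 0.00 ± 0.08 (SD, n = 3), a difference of -0.80 (exact two-sided permutation test, p = 0.1, adjusted p = 0.1). With 3 libraries against 3 no exact test can go below p = 0.1, so neither pair could pass 0.05. The separation of the single genes set both p-values at 0.1 in advance, so they add no evidence to the values of those genes. How featureCounts was set to treat reads that match similar family members is not stated, so the values of like-named genes are uncertain by an unknown amount. Ratios between genes also depend on transcript length, so only their difference between genotypes is compared.

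**Figure D3:**
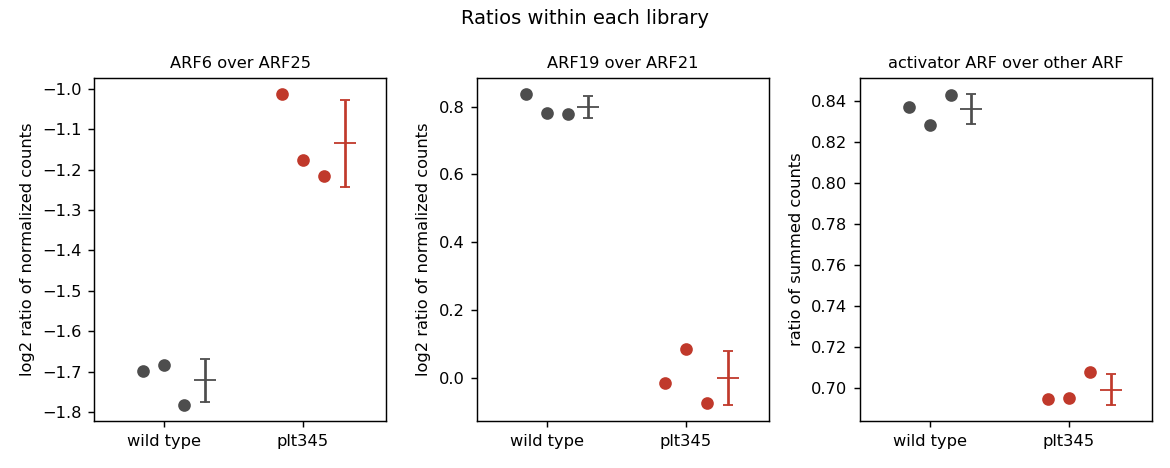
Log2 ratio of normalized counts of ARF6 over ARF25 and of ARF19 over ARF21, and ratio of summed activator ARF to summed other ARF counts (vertical axes, not from 0), in each wild type (grey) and plt345 (red) library with mean and SD. The first ratio is higher and the other two are lower in all plt345 libraries, with means of 0.836 and 0.699 for the third.

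The class as a whole gave fewer reads in plt345. The normalized counts of the 9 genes summed to 13499, 13539 and 13555 in the wild type libraries and to 11734, 11829 and 11700.3 in the plt345 libraries, with no overlap. The make-up of this sum also differed between the genotypes. The group related to Arabidopsis ARF6 and ARF8 made up 59.1% ± 0.158 of it in wild type and 54.7% ± 0.593 in plt345 (SD, n = 3). The group related to ARF7 and ARF19 rose from 40.8% ± 0.192 to 43.7% ± 0.604, and ARF11 from 0.158% ± 0.0393 to 1.62% ± 0.131. Among single genes, the share of ARF21 went from 8.90% ± 0.202 to 14.8% ± 0.437 and that of ARF12 from 15.6% ± 0.358 to 10.7% ± 0.295. The shares of ARF5 and ARF17 overlapped between the genotypes, and those of the other 7 did not. By normalized counts, the genotypes did not overlap in 71.0% of all tested genes. The shares are parts of 1 sum, so a change in 1 gene moves those of the others. The mean share of ARF17 went from 16.9% to 17.6% although its count fell. A longer transcript gives more reads, so a share says nothing of the number of molecules of 1 gene against another.

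**Figure D4:**
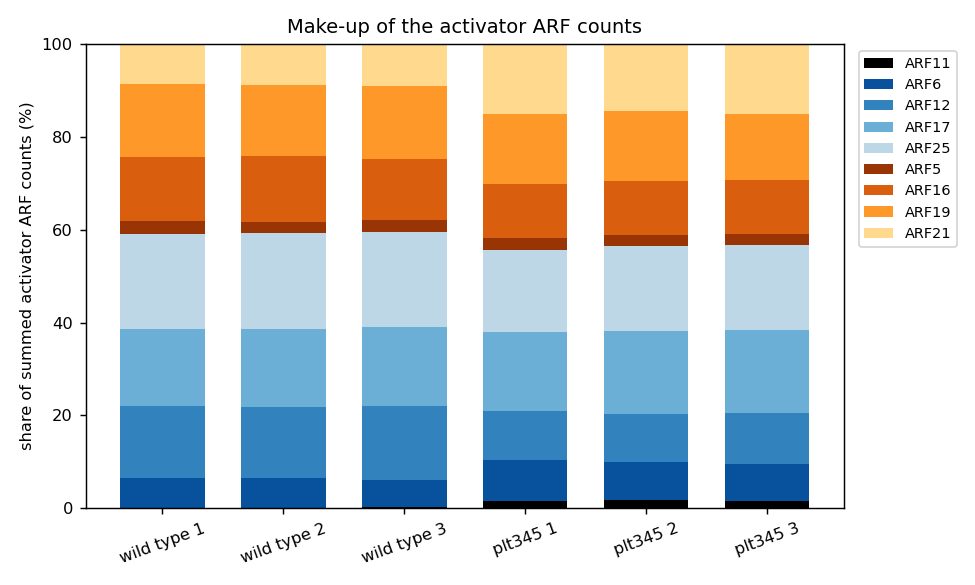
Share of each gene in the summed normalized counts of the 9 activator ARF genes (vertical axis, percent) in each library, with ARF11 in black, the group related to Arabidopsis ARF6 and ARF8 in blue and the group related to ARF7 and ARF19 in orange. ARF21 takes 8.90% on average in wild type and 14.8% in plt345, and ARF12 takes 15.6% and 10.7%.

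The remaining ARF genes fall outside the activator class by nomenclature and are mostly described as repressors. Their glutamine content was not computed. They summed to 16078 to 16343 normalized counts in wild type and to 16522 to 17016 in plt345. The genotypes did not overlap, and the direction was opposite to that of the activator sum. Of 16 such genes 14 were tested, and 8 were higher and 3 lower. Over all tested genes 34.0% were higher and 34.0% lower. The list's median log2 fold change was 0.18, against 3 higher and 6 lower and a median of -0.27 for the activator class. ARF10 (LOC_Os04g43910) rose 3.55-fold from 214.4 ± 11.8 to 762.0 ± 18.7 and ARF15 (LOC_Os05g48870) 2.20-fold from 464.1 ± 25.6 to 1021 ± 39.1. ARF7 (LOC_Os02g35140) fell 1.37-fold from 2984 ± 75.8 to 2175 ± 74.2. The ratio of summed activator to summed other ARF counts was 0.837, 0.828 and 0.843 in the wild type libraries and 0.695, 0.695 and 0.708 in the plt345 libraries. The genotypes did not overlap, and the ratio does not depend on the scaling between libraries.

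The Aux/IAA genes, whose products hold ARF proteins inactive, kept nearly the same proportion to the activators. The ratio of summed activator ARF to summed Aux/IAA counts was 0.298 ± 0.00175 in wild type and 0.296 ± 0.000738 in plt345 (SD, n = 3). Libraries ran from 0.29682 to 0.29998 in wild type and from 0.29529 to 0.29675 in plt345, so the genotypes did not overlap, by a narrow margin. Of 31 Aux/IAA genes 27 were tested, 12 were higher, 8 were lower and 7 did not pass, against 34.0% higher and 34.0% lower over all tested genes, and the list's median log2 fold change was 0.19. IAA13 (LOC_Os03g53150) and IAA31 (LOC_Os12g40900) fell, from 11668 ± 523 to 7607 ± 60.1 and from 7375 ± 131 to 5505 ± 150, and IAA21 (LOC_Os06g22870) rose from 784.5 ± 17.0 to 1242 ± 18.8. The summed Aux/IAA counts went from 45412 ± 358 in wild type to 39703 ± 259 in plt345 (SD, n = 3). The sum is weighted to genes with many reads, and the median is not, and the 2 measures differ in direction.

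**Figure D5:**
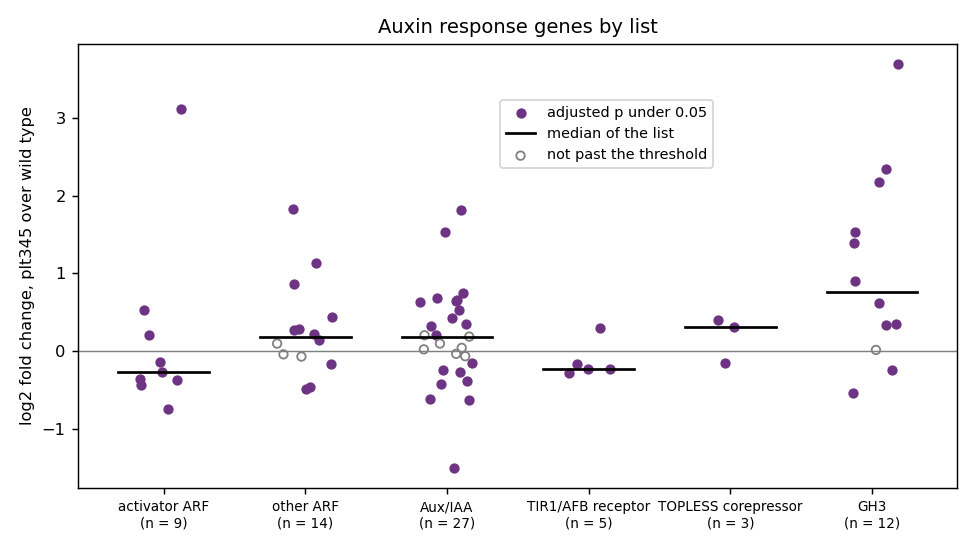
Log2 fold change between plt345 and wild type (vertical axis, positive where plt345 is higher) of each tested gene in 6 lists of the auxin response, filled where the limma adjusted p was under 0.05, with a line at the median of the list. The medians are -0.27 for the activator ARF genes, 0.18 for the other ARF genes and 0.76 for the GH3 genes.

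The receptor genes were mostly lower. Of the 5 TIR1/AFB genes 4 fell and 1 rose, beside 34.0% lower and 34.0% higher over all tested genes. Their median log2 fold change was -0.22. AFB2 (LOC_Os04g32460) went from 4171 ± 98.6 to 3425 ± 55.6, AFB5 (LOC_Os03g08850) from 1847 ± 20.8 to 1582 ± 41.8, and AFB4 (LOC_Os02g52230) from 6762 ± 58.9 to 6023 ± 77.0. Of the 3 TOPLESS-type corepressor genes, the one entered as TPR1 (LOC_Os01g15020) rose 1.32-fold, TPR2 (LOC_Os08g06480) rose 1.24-fold, and TPR3 (LOC_Os03g14980) fell 1.11-fold, a call lost with library totals (log2 fold change -0.062, limma adjusted p = 0.0698). The reference table has the symbol TPR2 on another chromosome than this locus, and gives TPR1 as a synonym on 2 chromosomes, so the locus and not the number identifies these genes.

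Of the GH3 genes tested, most rose. GH3 enzymes join auxin or jasmonate to amino acids, and several GH3 genes are classical early targets of auxin. Of 13 listed GH3 genes 12 were tested, 9 rose and 2 fell, and their median log2 fold change was 0.76. The 3 with the smallest adjusted p all rose, with log2 fold changes of 2.34 for GH3.4 (LOC_Os05g42150, SE 0.13), 1.53 for GH3.2 (LOC_Os01g55940, SE 0.09) and 0.90 for GH3.8 (LOC_Os07g40290, SE 0.06). The other ARF, Aux/IAA, receptor, corepressor and GH3 lists stand beside the same 34.0% higher and 34.0% lower over all tested genes, and none of them was tested as a list. CRL1 (LOC_Os03g05510), a crown root initiation gene with auxin response elements in its promoter, was at 74.2, 85.9 and 84.9 normalized counts in wild type and at 123.5, 156.5 and 161.5 in plt345. All 3 plt345 libraries were above all 3 of wild type, with an SE of 0.13 around a log2 fold change of 0.84 (limma adjusted p = 2.36e-06). ARF transcript levels do not measure ARF protein or its binding, and neither was measured in these libraries.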

How the data were processed

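RNA from 6 root tip samples was read on a BGISEQ-500 (paired ends), per the labels' protocols. Tools listed in the submitters' processing notes are featureCounts 2.0.0, DESeq2 1.38.3 and HISAT2. Genome build, strand setting and parameters are not given in those sources. The authors deposited 1 table whose library columns, and their mean, are a signal made by dividing read counts by a size factor for each library, per the file headers and the values. Of these values 100% were whole multiples of 1 read within 0.01, so reads were recovered. The deposited log2 fold change, its SE, the Wald score and the p-values with adjusted p-values come from DESeq2, per the file headers.

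Genes averaging at least 10 entered limma 3.58.1 (R 4.3.3, trend, two-sided, no covariate) as log2(value + 1), which understates changes of low genes. The test was first tried on simulated counts in which few genes changed. That trial does not check the test in data where most genes pass. A median over a list is descriptive and no list was tested. Libraries of a genotype differed by more than sampling noise (chi-square per gene 1.44 to 2.12), so none was treated as a repeat. This cannot show that they came from separate plants. The common coefficient of variation beyond counting was only 2.72% in edgeR. Intervals on counts cover counting error only where counting is named.

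The table gives no symbols. Names were written from rice nomenclature, and 8 of the 9 member symbols were found in the reference table (ASM3414082v1) on the chromosome that the locus names. ARF11 was not found there, so its name rests on nomenclature, as do, among others, those of CRL1, the PLT genes and the TIR1/AFB genes. Of all 95 loci given a name, 21 had a symbol that was not found and 1 had it on another chromosome. The symbols of 2, ARF24 and IAA24, lay more than 1.5 Mb from the expected place, and 4 could not be placed within their chromosome. Such genes still enter the list counts. The members and lists were set by identifier and not by a measured value, but by someone who knew earlier results of these data. Named genes are the 9 members, CRL1, PLT3 to PLT5, up to 3 members of each list with the smallest adjusted p, and the 2 genes most like ARF11. No sequences or transcript lengths were used here, so glutamine content, protein-based pairs and per-length levels planned for this work were not computed. Alternatives were other pseudocounts (0.5 and 5), filters (none and 50), scalings, edgeR 4.0.16, the deposited values, a replicate block and each library left out.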

Additional observations from a re-analysis of the deposited data

How the results depend on the processing

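For 8 of the 9 activator ARF genes, direction and call were kept in all 15 alternatives, with log2 fold changes of 2.901 to 3.303 for ARF11, -0.76 to -0.66 for ARF12, 0.52 to 0.62 for ARF21 and 0.17 to 0.30 for ARF6. ARF17 kept its call in 14 and lost it with library totals (-0.057), where 5 members were lower in place of 6. Why library totals differ from the size factors was not tested. With library totals 60.9% of all calls were higher (9362 higher and 6014 lower), against 50.1% with the authors' size factors (7886 and 7865), and the median of all tested genes moved by 0.09. PLT3, which did not pass in any setting, changed sign with library totals (0.079), with edgeR (0.0022) and without plt345 replicate 3 (0.018), within a range of -0.032 to 0.018 over the 6 fits that leave out 1 library. PLT4 lost its call with library totals (-0.13), in the authors' deposited table (-0.22) and in 3 of those 6 fits (those lacking replicate 1 or 3 of wild type, or replicate 2 of plt345), whose values ran from -0.28 to -0.17 over all 6. With the replicate number as a block, 3 members were higher and 6 lower, and 7941 and 7972 of all genes. Same-numbered libraries did not deviate together (correlations of 0.0240, 0.0193 and -0.000854), so the numbers were not taken as pairs. Leaving out 1 library moved the difference in the activator to other ARF ratio between -0.141 and -0.133, that of the ratio to Aux/IAA between -0.00248 and -0.000894, the log2 ratio of ARF6 over ARF25 between 0.53 and 0.63 and that of ARF19 over ARF21 between -0.84 and -0.76. Ratios by coding length were not run, for want of lengths. Depth limits ARF11 in wild type most, at 63 reads in all.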
